A study of Homo sapiens with 3 samples.

Results

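YAP1 and TEAD1 encode the coactivator and one of the DNA-binding partners at the end of the Hippo pathway, and the other 8 genes described here (ANKRD1, CCN1, CCN2, AXL, CRIM1, AMOTL2, LATS2 and AJUBA) are known or reported targets or regulators of that pair. All 10 genes were found on the arrays, out of 19775 genes with a probe set of a single gene symbol. They were chosen from the pathway by name, with the log2 ratios of these arrays already known, so those ratios are given as a description, with no test. SKOV-3, an ovarian cancer cell line, was stably transduced with lentivirus for G9a shRNA1, G9a shRNA2 or, as control, an shRNA to luciferase (Luc shRNA), and all cells were held under puromycin for 2 weeks. G9a, the product of EHMT2, methylates histone H3 on lysine 9, a mark of silenced genes. One RNA sample per condition was hybridised to an Affymetrix whole-genome array, 3 arrays in all, so there is no replicate error and precision is limited by that number. Both G9a shRNA arrays were compared with the same Luc shRNA array.

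The Hippo pathway is a kinase cascade in which MST kinases activate LATS kinases, and LATS kinases phosphorylate the coactivators YAP and TAZ and keep them out of the nucleus. When the cascade is quiet, for example in spread cells or under tension, YAP and TAZ enter the nucleus, bind TEAD factors and switch on genes for matrix signaling, growth and migration. Several targets, among them LATS2 and AMOTL2, restrain YAP in turn and so form a negative feedback. In many carcinomas, ovarian cancer included, YAP acts as an oncoprotein.

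Of the 10 genes, ANKRD1 stood about 4-fold above the Luc shRNA array with both G9a shRNAs, and it was the only one past 2-fold with both at the brightest probe set. CCN1 was 1.56-fold and 1.47-fold higher and LATS2 1.49-fold and 1.35-fold higher at their brightest probe sets, and their other probe sets past the filter gave larger ratios. YAP1 and TEAD1 themselves, and CCN2, CRIM1, AMOTL2 and AJUBA, lay close to the control at their brightest probe sets. AXL was slightly lower at one probe set and level at the other. Across all genes whose highest signal reached the median over the 3 arrays (11.96), 2.57% were past 2-fold higher with both shRNAs and 1.66% were past 2-fold lower, against 1 and 0 of these 10. Among the 8348 genes at or above the 75th percentile (89.7), the shares were 0.611% and 0.467%. The rule used this contrast, so nothing is read from the count. The median log2 ratio over the 10 genes, as the mean of both shRNAs, was 0.09, beside 0.05 over all 13192 genes past the filter at the median.

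**Figure D1:**
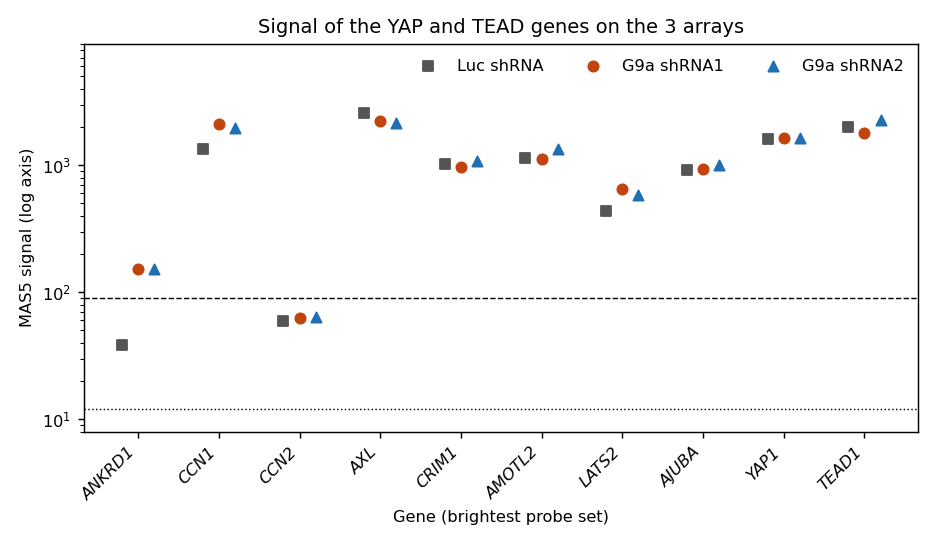
MAS5 signal (y axis, log scale) of the brightest probe set of each of the 10 genes on the Luc shRNA (squares), G9a shRNA1 (circles) and G9a shRNA2 (triangles) arrays, 1 array each. The dotted line marks the median over the 3 arrays (11.96) and the dashed line the 75th percentile (89.7); ANKRD1 goes from 38.5 with Luc shRNA to 151 and 152, whereas CCN2 stays between 58.9 and 63.4, and levels of different genes cannot be compared because each probe set has its own response.

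EHMT2, the targeted gene, read 182 in Luc shRNA cells, 29.7 in G9a shRNA1 cells and 79.2 in G9a shRNA2 cells at its brightest probe set, log2 ratios of -2.62 and -1.20, and its second, dimmer probe set gave -0.21 and -0.75. Of 9 markers of ovarian carcinoma cells, 7 passed the 75th percentile, and MSLN alone was under the median. The summed signal of these 9 markers was 7980 in Luc shRNA cells, 9444 in G9a shRNA1 cells and 10423 in G9a shRNA2 cells. Of the 8 past the filter, 5 were higher with both shRNAs (KRT7, KRT8, KRT18, KRT19 and EPCAM). ERBB2 was lower, with log2 ratios of -0.36 and -0.02, and PAX8 and FOLR1 had ratios on opposite sides of 0. Among all genes past the filter at the median, 44.0% had both ratios above 0 and 30.8% both below. Nothing is thus read from the count of markers. The sum is weighted toward the bright markers, such as KRT18 and EPCAM. Markers of leukocytes (3 of 3 measured), endothelium (4 of 5) and fibroblasts (4 of 5) were under the median on all arrays, with summed signals between 8.37 and 43.2, and the 4 mesothelial markers stayed at or below 72.7. The ratio of 3′ to 5′ signal for β-actin, a sign of RNA quality, was 3.68 in Luc shRNA cells, 1.83 in G9a shRNA1 cells and 1.47 in G9a shRNA2 cells. The same ratio for GAPDH was nearly equal on the arrays, at 1.15, 1.12 and 1.14 in the same order. The part of RNA quality and of carcinoma marker levels in the ratios below was not tested.

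As a yardstick in place of replicates, the log2 difference between both G9a shRNA arrays was taken over the 500 probe sets nearest to a gene in Luc shRNA signal. Its SD, called the local spread here, ran from 0.16 near AXL to 0.40 near ANKRD1. It includes real differences between the shRNAs and leaves out the error of the Luc shRNA array, which every ratio shares. At their brightest probe sets ANKRD1, CCN1, LATS2 and AXL lay beyond their local spread on the same side with both shRNAs, 3 of them higher and 1 lower, and the other 6 genes did not. By the same yardstick 14.6% of the 13192 genes past the filter were higher and 10.1% lower, so lying beyond it was common on these arrays. The rule used this contrast, and nothing about the 10 genes is read from their count.

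ANKRD1 encodes a nuclear ankyrin repeat protein of stressed heart and skeletal muscle, and it is among the most widely used readouts of YAP. It is also induced by other signals, which the arrays do not separate. Its single probe set gave a signal of 38.5 in Luc shRNA cells, 151 in G9a shRNA1 cells and 152 in G9a shRNA2 cells. Both G9a shRNA arrays were thus clearly above the control and almost equal to each other. The log2 ratios were 1.98 and 1.99, or 3.94-fold and 3.96-fold, against a local spread of 0.40. By the smaller of its ratios it ranked 3 among the 8348 genes, although it passed the 75th percentile through the G9a shRNA arrays alone. ANKRD1 was chosen with these ratios known, so nothing is read from the rank. The log2 ratios of ANKRD1 were 1.96 and 1.84 after quantile normalization and 1.90 and 1.97 after median centring.

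CCN2 (also known as CTGF) encodes a secreted matricellular protein that binds integrins and growth factors, and it is the other classic YAP readout. Its single probe set read 58.9 in Luc shRNA cells, 63.2 in G9a shRNA1 cells and 63.4 in G9a shRNA2 cells, so all 3 arrays lay close together. The log2 ratios were 0.10 and 0.11, inside the local spread of 0.38, and the ratio with G9a shRNA2 became -0.04 after quantile normalization. Like ANKRD1, CCN2 had a control signal below the 75th percentile. ANKRD1 and CCN2, both known for TEAD sites near the start of transcription, thus gave unlike ratios on the same arrays.

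The promoter windows of these genes are shown because both hold several copies of the TEAD motif, while ANKRD1 was about 4-fold higher and CCN2 lay inside its local spread. The sequences are from RefSeq on GRCh38.p14, each the 250 bases before the transcription start, on the strand of the gene. Capitals mark the TEAD motif CATTCC on either strand, which reads GGAATG here, and the AP-1 motif TGANTCA, bound by FOS and JUN factors. ANKRD1 is on the minus strand at chr10:90921088-90921337 and CCN2 on the minus strand at chr6:131951373-131951622.
ANKRD1: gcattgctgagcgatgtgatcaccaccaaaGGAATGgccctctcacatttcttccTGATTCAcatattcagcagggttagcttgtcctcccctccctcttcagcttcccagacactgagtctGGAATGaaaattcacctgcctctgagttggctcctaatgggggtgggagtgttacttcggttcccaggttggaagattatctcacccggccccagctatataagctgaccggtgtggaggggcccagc
CCN2: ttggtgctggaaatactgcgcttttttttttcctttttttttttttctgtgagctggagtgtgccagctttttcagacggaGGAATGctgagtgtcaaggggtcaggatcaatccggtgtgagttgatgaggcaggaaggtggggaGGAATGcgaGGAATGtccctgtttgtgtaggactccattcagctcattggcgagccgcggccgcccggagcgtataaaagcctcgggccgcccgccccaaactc

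Both windows were searched together with the 50 bases after the start, 300 in all, on both strands, and no match overlapped another motif's match. ANKRD1 had 2 TEAD motifs, beginning 220 and 128 bases before the start, and an AP-1 motif beginning 195 bases before it. CCN2 had 3 TEAD motifs, beginning 169, 104 and 95 bases before the start, and no AP-1 motif. Of all 35116 RefSeq windows of this length, 14.0% had a TEAD motif, 1.37% had 2 or more and 0.128% had 3 or more, and 7.71% had an AP-1 motif. Windows were found for 7 of the 10 genes, 10 windows in all, and each of the 7 had the TEAD motif in a window. LATS2 had it from base 10 after the start, YAP1 had it 162 bases before the start, and AXL, AMOTL2 and AJUBA each had it in 1 of 2 windows. No window held the CArG box, the motif of SRF, which 1.29% of all windows had. A match describes letters in the window and not a bound site. CCN1, CRIM1 and TEAD1 were not matched to a window.

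CCN1 (also known as CYR61) encodes the matricellular protein most closely related to CCN2, and it is an immediate early gene as well as a YAP target. Its brighter probe set read 1345 in Luc shRNA cells, 2094 in G9a shRNA1 cells and 1974 in G9a shRNA2 cells. The second probe set read 595, 994 and 896 in the same order. Both G9a shRNA arrays were above the control at either probe set. The log2 ratios were 0.64 and 0.55 at the brighter probe set and 0.74 and 0.59 at the second, against a local spread of 0.17 near the brighter one. Neither probe set reached 2-fold.

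LATS2 encodes a kinase that phosphorylates YAP and TAZ, so that its induction by YAP closes a negative feedback. It read 432 in Luc shRNA cells, 644 in G9a shRNA1 cells and 585 in G9a shRNA2 cells at its brightest probe set. At the second it read 349, 574 and 490. All 4 LATS2 probe sets were higher with both G9a shRNAs. The log2 ratios were 0.58 and 0.43 at the brightest and 0.72 and 0.49 at the second, against a local spread of 0.22. The third gave 1.34 and 1.48 but started at 8.83 in the control, under the median over the arrays, and the last stayed under that median throughout.

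AMOTL2 encodes an angiomotin that holds YAP at cell junctions and is itself a YAP target. Its single probe set read 1129 in Luc shRNA cells, 1119 in G9a shRNA1 cells and 1351 in G9a shRNA2 cells. G9a shRNA1 was level with the control and G9a shRNA2 was above it, with log2 ratios of -0.01 and 0.26, the latter beyond the local spread of 0.18. The first became 0.03 after quantile normalization. AJUBA encodes a LIM protein that binds LATS kinases and limits their action on YAP. Its brightest probe set read 916, 929 and 996 with Luc shRNA, G9a shRNA1 and G9a shRNA2, log2 ratios of 0.02 and 0.12. The first became -0.05 after median centring. The second AJUBA probe set, at 450 in the control, gave 0.33 and 0.33, the third gave 0.13 and 0.08, and the last was too dim to pass the filter.

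AXL encodes a receptor tyrosine kinase of the TAM family and is reported as a YAP target in cancer cells. Its brighter probe set read 2579 in Luc shRNA cells, 2222 in G9a shRNA1 cells and 2168 in G9a shRNA2 cells. The log2 ratios of -0.21 and -0.25 lay just beyond the local spread of 0.16, whereas the second probe set, at 193, 198 and 193, gave 0.03 and 0.00. CRIM1 encodes a membrane protein with cysteine-rich repeats that binds bone morphogenetic proteins. It read 1019, 976 and 1078 with Luc shRNA, G9a shRNA1 and G9a shRNA2. The log2 ratios were -0.06 and 0.08, inside the local spread of 0.19, and both were below 0 after quantile normalization. Its other probe sets gave -0.18 and -0.19, and -0.31 and -0.11.

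YAP1 read 1618 in Luc shRNA cells, 1627 in G9a shRNA1 cells and 1648 in G9a shRNA2 cells at its brightest probe set, so the 3 arrays were nearly equal. The log2 ratios were 0.01 and 0.03, but the first was -0.06 after median centring and the second -0.07 after quantile normalization. The second YAP1 probe set, at 527 in the control, gave 0.24 and 0.44, and the third, at 166, gave -0.12 and 0.08, so the YAP1 probe sets disagreed. TEAD1 read 1998 in Luc shRNA cells, 1777 in G9a shRNA1 cells and 2277 in G9a shRNA2 cells. Here G9a shRNA1 was the lowest array and G9a shRNA2 the highest, with log2 ratios of -0.17 and 0.19. The ratio with G9a shRNA2 lay just beyond the local spread of 0.18. The second TEAD1 probe set had the same order, with -0.17 and 0.25. The third, at 45.5 in the control, gave 0.17 and 0.81. The arrays measure RNA only, and the place or phosphorylation of YAP in the cell was not measured.

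**Figure D2:**
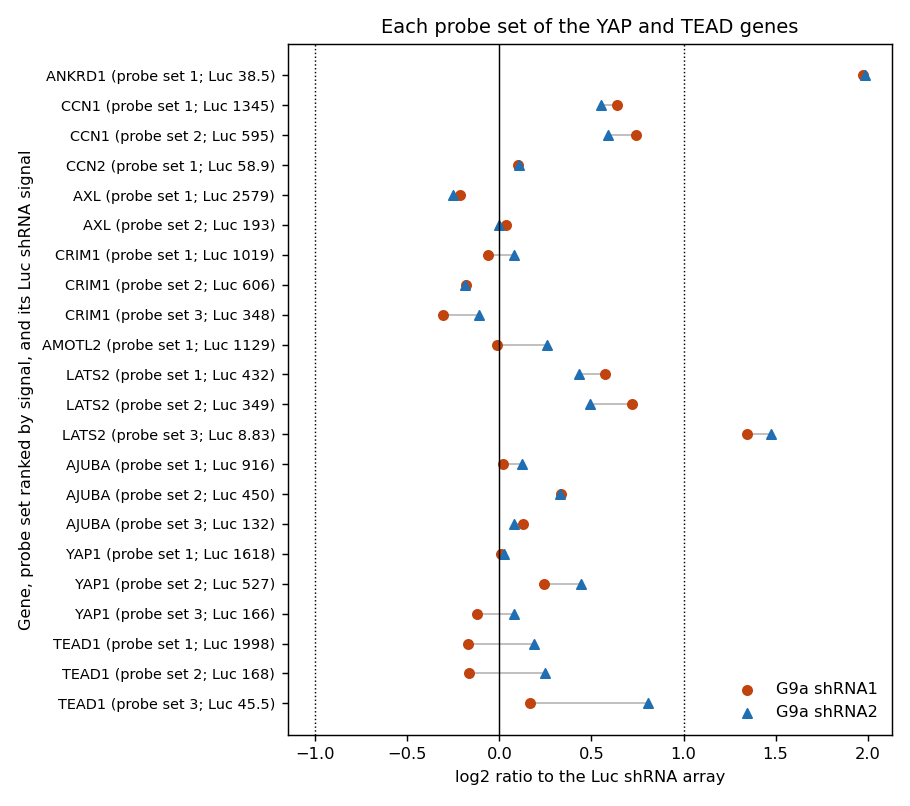
Log2 ratio to the Luc shRNA array (x axis) for G9a shRNA1 as circles and for G9a shRNA2 as triangles, over the 22 probe sets of the 10 genes past the filter at the median, 1 array per shRNA, each labelled with its Luc shRNA signal. Dotted lines mark 2-fold; the ANKRD1 probe set and the third, dim LATS2 probe set lie past 2-fold with both shRNAs, and all probe sets of CCN1 and LATS2 lie to the right of 0.

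The 10 genes had 24 probe sets, of which 22 passed the filter at the median and 19 passed the 75th percentile. Of the 22, 2 were past 2-fold with both shRNAs, both higher. The LATS2 one of these passed the filter through the G9a shRNA arrays alone. Beside them, 2.57% of all genes past the filter were higher and 1.66% lower in this way, and nothing is read from the count. Among the 7 genes with more than 1 probe set past the 75th percentile, all such probe sets had both ratios on a single side of 0 in 3 (CCN1, LATS2 and AJUBA). Over all probe sets past the 75th percentile the median log2 ratio was 0.01 with G9a shRNA1 and 0.13 with G9a shRNA2, so a value such as 0.12 for AJUBA lay at the level of the whole array. Quantile normalization shifted the log2 ratios with G9a shRNA2 by a median of -0.14 over the probe sets past the 75th percentile, and median centring shifted those with G9a shRNA1 by -0.07. In 5 of the 10 genes (CCN2, CRIM1, AMOTL2, AJUBA and YAP1) a ratio near 0 changed sign under one of these scalings, and in the other 5 none did.

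**Figure D3:**
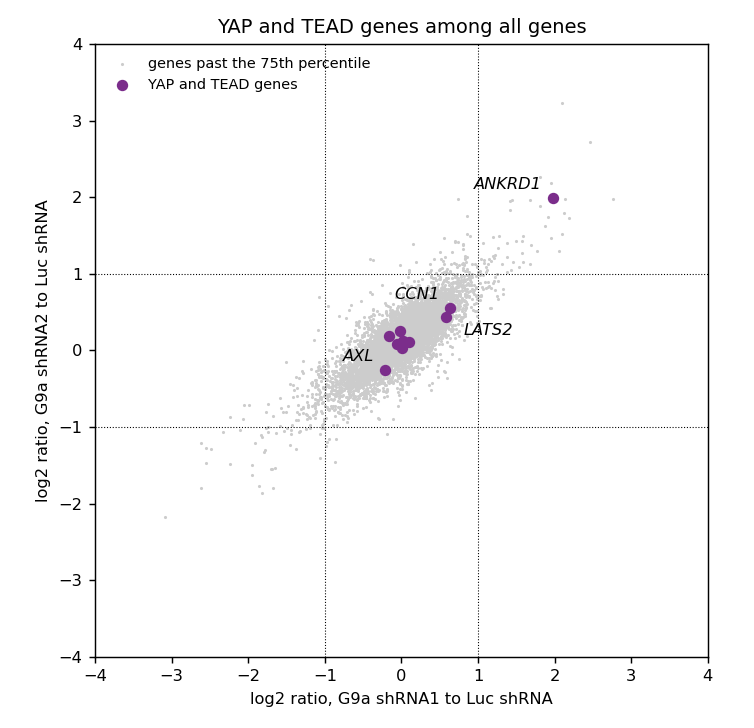
Log2 ratio to the Luc shRNA array with G9a shRNA1 (x axis) and G9a shRNA2 (y axis), 1 grey point per gene for the 8348 genes past the 75th percentile, and the 10 YAP and TEAD genes in purple. Dotted lines mark 2-fold; ANKRD1 lies at 1.98 and 1.99, CCN1 and LATS2 sit between 0.43 and 0.64, and the other 7 lie between -0.25 and 0.26.

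The genes nearest to ANKRD1 in their pair of log2 ratios, by Euclidean distance over 2 ratios from 3 arrays, were DUSP1 (distance 0.16), LIPG (0.20), FAM133A (0.20), RGS2 (0.24) and C1orf116 (0.26). DUSP1, a phosphatase of MAP kinases, gave 2.14 and 1.98. LIPG, the endothelial lipase, gave 1.96 and 2.18 and, like ANKRD1, was dim in the control, at 31.4. None of these 5 belongs to the pathway lists used here.

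Other genes of a conserved signature of YAP and TAZ targets gave ratios on both sides of 0. Of the 15 listed, 14 were measured and 13 passed the filter at the median. Past 2-fold with both shRNAs, 3 of them were lower and none was higher, beside 1.66% lower and 2.57% higher over all genes past the filter. This list and those below are small and were chosen with these results known, so nothing particular to them is read from the counts. IGFBP3, a carrier of insulin-like growth factors, read 2265 in Luc shRNA cells, 479 in G9a shRNA1 cells and 809 in G9a shRNA2 cells, log2 ratios of -2.24 and -1.48, and its second probe set gave -2.41 and -1.51. CCDC80, a secreted matrix protein, gave -1.44 and -1.05, and RBMS3, an RNA-binding protein, gave -1.07 and -1.40. GADD45A, a stress gene that also answers to p53, was higher, at 0.85 and 0.61 over a control signal of 1310. The median of the 14 was -0.21, beside 0.09 for the 10 genes. Both ratios were below 0 in 7 of the 13 genes past the filter and above 0 in 2, where over all genes past the filter 30.8% were below 0 with both and 44.0% above.

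Among 11 measured genes of a list of other reported YAP targets, 1 was past 2-fold lower with both shRNAs and none was higher. Over all genes past the filter, 1.66% were lower and 2.57% higher in this way. The lower gene was INHBA, the βA subunit of activins and inhibins, at -1.95 and -1.71. Its control signal of 32.4 dropped below the median over the arrays with both. EDN1, which encodes the vasoactive peptide endothelin 1, read 354 in Luc shRNA cells, 179 in G9a shRNA1 cells and 148 in G9a shRNA2 cells, log2 ratios of -0.98 and -1.25. FSTL1, a secreted glycoprotein, gave -0.89 and -0.57, whereas MYC, the growth-promoting transcription factor, gave 0.71 and 0.46. The median of this list was 0.12, with 6 genes above 0 with both shRNAs and 5 below. Over all genes past the filter, 44.0% were above 0 with both and 30.8% below.

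Of the TAZ, TEAD and VGLL genes other than TEAD1, 6 of 8 passed the filter and none was past 2-fold with both. Such genes were also rare among all genes past the filter, at 2.57% higher and 1.66% lower. WWTR1, which encodes TAZ, the paralog of YAP, read 1200 in Luc shRNA cells, 940 in G9a shRNA1 cells and 996 in G9a shRNA2 cells. Its log2 ratios were -0.35 and -0.27 there, -0.42 and 0.00 at the second probe set, and -0.79 and -0.60 at the third. TEAD2, TEAD3 and TEAD4, the paralogs of TEAD1, were higher with both shRNAs at their brightest probe sets. The ratios were 0.69 and 1.14 for TEAD2, 0.30 and 0.49 for TEAD3, and 0.47 and 0.56 for TEAD4. The second TEAD4 probe set, also past the 75th percentile, gave smaller ratios of 0.13 and 0.25. The TEAD2 and TEAD3 signals with Luc shRNA were 43.8 and 67.1, below the 75th percentile, and the dimmest TEAD2 probe set did not share the direction. The median over all 8 measured genes was -0.04, with VGLL1 and VGLL3, which were under the filter, included. Over the 5 genes past the 75th percentile it was 0.39, but TEAD2 and TEAD3 passed that filter through the G9a shRNA2 array alone. Nothing is thus read from the higher median.

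Of the Hippo kinases and their upstream regulators, 22 of 24 were measured, 20 passed the filter and none was past 2-fold with both shRNAs. The shares over all genes past the filter were 2.57% higher and 1.66% lower, so nothing is read from the lack of such genes. The median of the list was 0.14. STK4, which encodes the MST1 kinase, gave 0.47 and 0.44, and MOB1A, an activating subunit of LATS kinases, gave 0.41 and 0.39. SAV1, the scaffold of the MST kinases, gave -0.47 and -0.60, but another of its probe sets past the 75th percentile gave 0.14 and 0.19. MAP4K1, a kinase of blood cells, gave 1.07 and 0.91 over a control signal of 8.23, and its second probe set gave -0.64 and -3.65.

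SRF, a transcription factor that works with MRTF coactivators on genes of the actin cytoskeleton, shares several targets with YAP. SRF itself gave 0.78 and 0.99 over a control signal of 51.7. Of 12 genes past the filter on the list of SRF and MRTF targets, 1 was past 2-fold higher with both and none was lower. Over all genes past the filter, 2.57% were higher and 1.66% lower in this way. The higher gene was TAGLN, an actin-binding protein of smooth muscle. TAGLN read 39.0 in Luc shRNA cells, 125 in G9a shRNA1 cells and 85.1 in G9a shRNA2 cells. Its log2 ratios were 1.68 and 1.13, with 1.35 and 1.40 at its second probe set, but -0.36 and -0.63 at the third, dim one, and with quantile normalization the ratio with G9a shRNA2 was 0.97, just short of 2-fold. CNN2, a calponin, gave 0.73 and 0.70, and ACTA2, smooth muscle actin, gave -1.29 and -0.64 over a control signal of 22.0. The median of the 14 measured genes was 0.13.

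**Figure D4:**
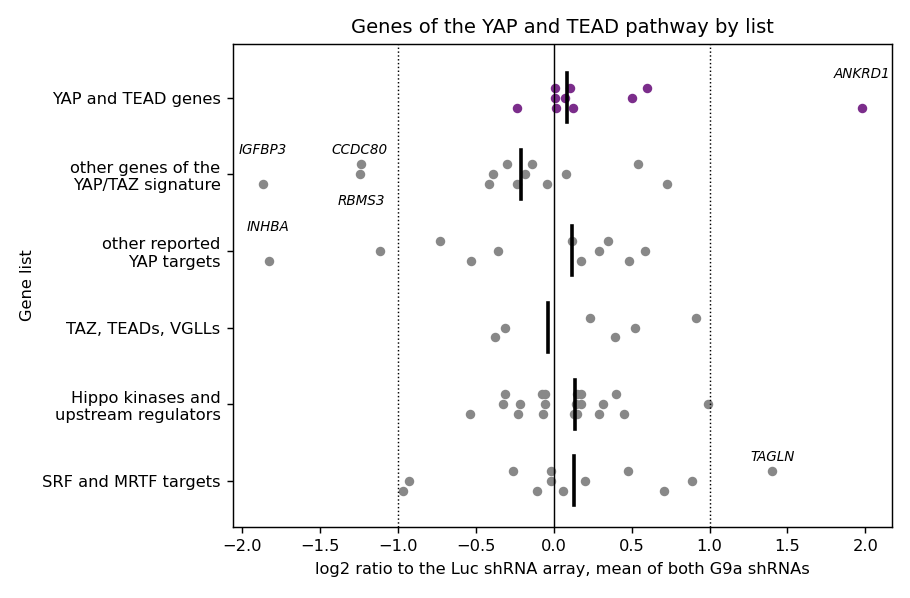
Log2 ratio to the Luc shRNA array as the mean of both G9a shRNAs (x axis) for the genes of 6 pathway lists (y axis), 1 point per gene past the filter at the median, with labels on those beyond 1.2 in size. Vertical bars mark the median over all measured genes of a list and dotted lines mark 2-fold; ANKRD1 lies at 1.98, whereas IGFBP3, CCDC80 and RBMS3 of the YAP/TAZ signature lie below -1.

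Relatives of the secreted and surface targets were compared in the same way. Of the other CCN genes, CCN3 and CCN5 passed the filter. CCN3, a matricellular protein with effects often opposed to those of CCN2, gave -1.28 and -0.29, with -1.37 and -0.85 at its second probe set, and CCN5 gave -0.12 and -0.29. Of the TAM receptors beside AXL and their ligands, 4 of 4 passed the filter and none was past 2-fold with both. Among all genes past the filter, only 2.57% were higher and 1.66% lower in this way. PROS1, the ligand protein S, read 269 in Luc shRNA cells, 67.6 in G9a shRNA1 cells and 163 in G9a shRNA2 cells, log2 ratios of -1.99 and -0.72. GAS6, the ligand of AXL, gave -0.24 and -0.15. The receptor MERTK gave 0.29 and 0.14 over a control signal of 25.8, but -0.41 and 0.54 at its second probe set. The receptor TYRO3 gave 0.04 and 0.39, the first of them below 0 after median centring.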

How the data were processed

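The authors hybridised 1 RNA sample per condition to Affymetrix whole-genome arrays and deposited the intensity of 54675 probe sets per array as MAS5 signals on a linear scale. MAS5 is named in the submitters' processing notes, and its version and settings are not given in the sources used here. Scaling between the arrays is thus unknown, and the 2% trimmed means of the signals were 106, 105 and 115 with Luc shRNA, G9a shRNA1 and G9a shRNA2. No further normalization was applied before log2 ratios to the Luc shRNA array were taken for both G9a shRNA arrays. A probe set was kept when its highest signal reached the median of all values, and the 75th percentile served as a stricter filter. Probe sets were named through Entrez identifiers (41097 had 1 gene symbol, 1801 several and 11777 none), and the brightest probe set by mean log2 signal stood for the gene. A gene counted as past 2-fold only with both shRNAs on the same side. No test was made with 1 array per condition.

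The members and gene lists were chosen with earlier results of these data known. The genes named are EHMT2, the 10 members, the 5 genes nearest to ANKRD1 and, of each of 7 pathway lists, up to 4 past the filter that are furthest from 0 by the smaller of their ratios, both on the same side. The alternatives were no filter, the 75th percentile, values under the median raised to it, median centring, quantile normalization, a mean ratio across the probe sets of each gene, 1 shRNA at a time, thresholds of 1.5-fold and 3-fold and, added after the data were seen, list medians over genes past the filter. The scripts were tested on simulated data. Calculations ran in Python 3.11.15 (pandas 2.3.3, numpy 2.4.6, scipy 1.17.1), with plots by matplotlib 3.10.9.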

Additional observations from a re-analysis of the deposited data

Results flagged for a closer look

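In 3 of the 10 genes the G9a shRNAs lay on opposite sides of the Luc shRNA array at the brightest probe set, and the difference was not tested, since each shRNA has 1 array. The log2 ratio with G9a shRNA2 was above that with G9a shRNA1 by 0.36 for TEAD1, by 0.27 for AMOTL2 and by 0.14 for CRIM1. Over all 13192 genes past the filter at the median, 44.0% had both ratios above 0 and 30.8% had both below. The median ratio over those genes was 0.00 with G9a shRNA1 and 0.12 with G9a shRNA2. Nothing about the 10 genes is thus read from the count.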

How the results depend on the processing

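No paired analysis was possible because each condition has 1 array. With every alternative run, 1 of the 10 genes (ANKRD1) was past the threshold higher and 0 were lower, thresholds of 1.5-fold and 3-fold included. The median over the 10 genes ran from 0.01 with G9a shRNA1 alone to 0.15 with G9a shRNA2 alone, and that over the other signature genes from -0.34 with the filter at the 75th percentile to -0.14 with G9a shRNA1 alone. The median over the Hippo kinases and regulators ran from 0.06 to 0.19 and that over the SRF and MRTF targets from 0.00 to 0.20. Raising values under the median could not move a ratio of the 10 genes, since none of their brightest probe sets had a signal under it. Averaging over probe sets could not move ANKRD1, CCN2 or AMOTL2, which have 1 probe set each. Of 80 single ratios recomputed, these included, 78 moved by less than 0.25. That is the SD of the difference between the G9a shRNA arrays past the 75th percentile. The exceptions were those of LATS2, 0.88 and 0.80 as the mean of its probe sets past the filter, which include the third, dim one. Signal over background limits the dimmer genes: between the median and the 75th percentile, that SD was 0.86.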
